A study of Mus musculus with 5 samples.

Results

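Lungs of mice given tumor-secreted factors (TSF) were compared with lungs of mice given control medium (CM) 11 days after intravenous injection of the mouse mammary carcinoma line 4T1. The members were every cell of the 3 day 11 libraries with a cell type in the deposited annotation, other than doublets and cells called unknown. These were 13655 of the 22118 annotated cells of the series, or of 23852 cells with doublets and unknown cells kept. They comprised 3738 cells of the CM library, 5113 of TSF library a and 4804 of TSF library b, in 21 cell types. All animals were female BALB/c mice, 6 weeks old at the first injection and 10 weeks old at collection at day 11. The day 16 mice, whose 1 CM and 1 TSF library are given as values beside, were treated likewise and were 11 weeks old. They received 200 µL of CM or TSF intravenously 3 times a week for 3 weeks, and then 25000 CD90.1-expressing 4T1 cells. TSF was medium conditioned by pieces of resected 4T1 mammary tumors (the protocol also names EMT6.5 tumors), with the supernatants of several tumors pooled, and CD90.1 is a surface protein variant that served to tell the cancer cells from the host. Dissociated lungs of 3 mice were pooled per group, and the labels do not say whether TSF a and b came from separate pools, so the spread between them may be technical. There was 1 CM library, and no test between the groups was made.

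The lung is a capillary bed lined by endothelial cells and wrapped by pericytes, and it is a frequent site of breast cancer metastasis. Factors released by a primary tumor are known to change the lung before cancer cells arrive, a state called the pre-metastatic niche. Natural killer (NK) cells are lymphocytes that kill circulating and newly seeded cancer cells without prior priming, whereas neutrophils and monocytes enter inflamed or tumor-bearing lung from the blood. The day 11 comparison addresses which cell types make up the dissociated lung early in seeding, and not where they lie.

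Single cells were measured with 5' 10x Genomics libraries that aimed for 10000 cells. The libraries held 40.1% (CM), 55.8% (TSF a) and 52.3% (TSF b) of that number. Unique molecular identifiers (UMIs), which count captured RNA molecules, summed to 11361766 in the annotated cells of CM, 15668042 in TSF a and 15431168 in TSF b. Doublets made up 6.11% of CM cells (95% interval 5.39 to 6.90), 8.01% of TSF a cells (7.31 to 8.75) and 7.82% of TSF b cells (7.10 to 8.58). CM shared 23 cell barcodes with TSF a and 24 with TSF b, and the TSF libraries shared 46 with each other. Gene expression per cell was not analysed here, so the annotated cell types could not be checked against their markers. All intervals on shares are exact 95% Clopper-Pearson intervals. Those on ratios of shares are exact conditional intervals of the pooled TSF cells against CM. Both cover counting error only, for 1 cell type at a time, and not differences between mice.

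A cell type was called set apart where both TSF shares lay on 1 side of the CM share, the log2 gap from CM to the nearer TSF library was larger than the log2 gap between a and b, and the interval of the ratio did not include 1. By this rule 4 of 21 cell types were higher after TSF (19.0%) and 3 of 21 were lower (14.3%). Cancer cells, pericytes, NK cells and endothelial cells were higher, and B cells, T cells and M2 macrophages were lower. The ratio of the mean TSF share to the CM share was 4.74 for cancer cells, 1.92 for pericytes and 1.79 for NK cells, whereas it lay between 0.774 and 1.09 for the other 4. Cancer cells, pericytes and NK cells were also the types set apart when the interval was widened for the number of cell types, an alternative chosen after seeing the data. A share counts a type against all others in its library, so more cells of a type cannot be told apart from fewer cells of the others.

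**Figure D1:**
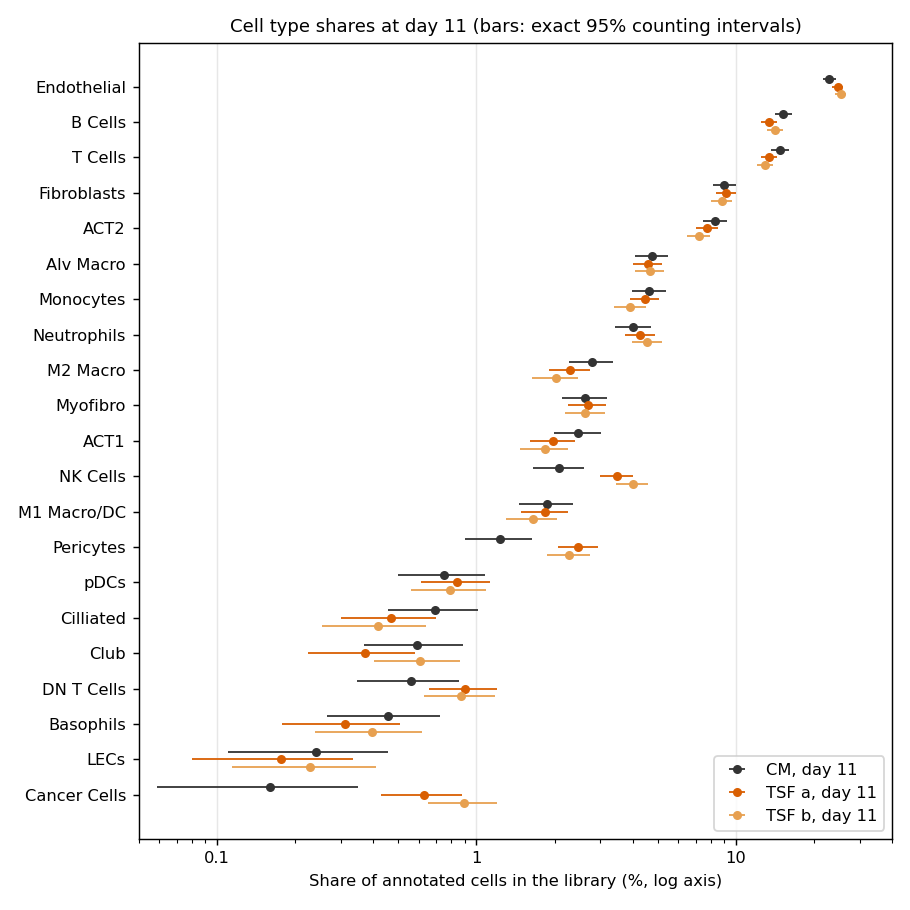
Share of annotated cells (%, log axis) of 21 cell types in the CM library and TSF libraries a and b of day 11, with exact 95% counting intervals as bars. The CM point lies below both TSF points for cancer cells (0.161% against 0.626% and 0.895%), pericytes and NK cells, and the points of a and b lie close together in most types.

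The TSF libraries lay close to each other. The median log2 gap between a and b was 0.11 over 21 types and 0.09 over the 16 types with at least 100 cells, where the largest was 0.20 for NK cells, a 1.15-fold difference. In 0 of 21 types did the interval of the a to b ratio lie apart from 1. Moving from a to b, 2.84% of cells would have to change type to give equal composition, against 5.74% from CM to a and 6.96% from CM to b. As a measure of distance without a p-value, the chi-square over the 21 types at 20 degrees of freedom was 15.2 between a and b, 68.3 between CM and a, and 91.3 between CM and b. Both TSF shares were above CM in 8 types, both were below in 11, and CM lay between them for club cells and fibroblasts.

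Cancer cells were the scarcest type in CM, with 6 cells or 0.161% (0.0589 to 0.349). TSF a held 32 cancer cells, 0.626% (0.428 to 0.882), and TSF b held 43, 0.895% (0.649 to 1.20). The ratio was 4.74 (2.07 to 13.2), with 3.90 for a and 5.58 for b, so its size rests on 6 CM cells. Cancer cells are large and rich in RNA, and their share of all UMIs was 1.20% in CM, 6.51% in TSF a and 8.80% in TSF b, a ratio of 6.38. Their median was 20760 UMIs in CM, 31050 in TSF a and 30698 in TSF b, which with 6 CM cells was not read as a difference. At day 16, with 1 library a group, cancer cells were 0.813% of CM and 2.84% of TSF, a ratio of 3.49 (2.33 to 5.41).

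Pericytes, the contractile cells that wrap capillaries and support the endothelium, numbered 46 in CM (1.23%, 0.902 to 1.64). They numbered 126 in TSF a (2.46%, 2.06 to 2.93) and 109 in TSF b (2.27%, 1.87 to 2.73). The ratio was 1.92 (1.40 to 2.70), and the log2 gap from CM to the nearer TSF library was 0.88 against 0.12 between a and b. At day 16 the pericyte share was 2.83% in CM and 2.06% in TSF, a ratio of 0.729 (0.547 to 0.970), which was 0.964 (0.724 to 1.28) with neutrophils left out of the total, an alternative added after seeing the data. The CM library of day 11 thus held the lowest pericyte share of the 5 libraries. Myofibroblasts, contractile matrix-producing cells that the authors grouped with pericytes in 1 class, were at 2.62%, 2.68% and 2.62% in CM, a and b, a ratio of 1.01 (0.799 to 1.29).

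NK cells, like pericytes, were lowest in CM. CM held 78 NK cells (2.09%, 1.65 to 2.60), TSF a held 178 (3.48%, 3.00 to 4.02) and TSF b held 192 (4.00%, 3.46 to 4.59). The ratio was 1.79 (1.40 to 2.31), and the log2 gap to the nearer TSF library was 0.74 against 0.20 between a and b. At day 16 NK cells were 3.08% of CM and 2.90% of TSF, a ratio of 0.940 (0.728 to 1.22), or 1.24 (0.964 to 1.61) without neutrophils. CM of day 11 again held the lowest share of the 5 libraries. Whether the day 11 CM library or the TSF treatment sets these ratios cannot be told apart with 1 CM library.

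Endothelial cells, the most numerous type, were 855 cells in CM (22.9%, 21.5 to 24.3), 1260 in TSF a (24.6%, 23.5 to 25.8) and 1213 in TSF b (25.2%, 24.0 to 26.5). The ratio was small, 1.09 (1.01 to 1.18), and at day 16 it was 0.547 (0.494 to 0.606). The endothelial call was lost without TSF b (1.08), with shares taken among non-immune cells (1.06, 0.979 to 1.15) and with doublets and unknown cells kept in the total (1.07). It was also lost with at most 5% mitochondrial UMIs (1.06), with at least 2000 UMIs (1.11, 0.998 to 1.23), with a centred log ratio (1.02) and under both stricter rules, a gap beyond the largest spread of the common types and a widened interval.

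B cells, the antibody lineage, were 568 cells in CM (15.2%, 14.1 to 16.4), 685 in TSF a (13.4%, 12.5 to 14.4) and 678 in TSF b (14.1%, 13.1 to 15.1), a ratio of 0.905 (0.820 to 0.999). T cells were 551 in CM (14.7%, 13.6 to 15.9), 683 in TSF a (13.4%, 12.4 to 14.3) and 622 in TSF b (12.9%, 12.0 to 13.9), a ratio of 0.892 (0.807 to 0.988). M2 macrophages, the label for macrophages of the alternatively activated kind, were 104 in CM (2.78%, 2.28 to 3.36), 117 in TSF a (2.29%, 1.90 to 2.74) and 97 in TSF b (2.02%, 1.64 to 2.46), a ratio of 0.774 (0.611 to 0.990). All 3 intervals ended just under 1, and the call was lost without TSF a for B cells (0.929) and without TSF b for T cells (0.906) and M2 macrophages (0.822). Among immune cells alone, none of the 3 was set apart, with ratios of 0.942 for B cells, 0.928 for T cells and 0.805 for M2 macrophages. At day 16 the ratios were 0.622 for B cells, 0.607 for T cells and 1.67 for M2 macrophages.

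A further 3 types had gaps beyond the a to b spread but intervals that included 1. Type 1 alveolar cells (ACT1), the flat cells of gas exchange, were 92, 101 and 88 cells in CM, a and b, a ratio of 0.773 (0.600 to 1.00). Ciliated cells, which clear mucus from the airways, were 26, 24 and 20, a ratio of 0.637 (0.384 to 1.08). The cells labelled DN T were 21, 46 and 42, a ratio of 1.58 (0.973 to 2.68).

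The remaining 11 types were not set apart, and their intervals are given for counting error alone. Fibroblasts, the main matrix producers, were 9.02% (337 cells), 9.15% (468) and 8.81% (423) of CM, a and b, a ratio of 0.996 (0.878 to 1.13). Type 2 alveolar cells (ACT2), which make surfactant, were 8.29% (310 cells), 7.73% (395) and 7.18% (345), a ratio of 0.899 (0.787 to 1.03). Neutrophils, short-lived phagocytes, were 4.01%, 4.26% and 4.54%, a ratio of 1.10 (0.908 to 1.33), against 5.05 (4.36 to 5.88) at day 16. Alveolar macrophages, the resident phagocytes of the air space, had a ratio of 0.976 (0.818 to 1.17), and monocytes one of 0.905 (0.757 to 1.09). The ratio was 0.930 (0.702 to 1.25) for the M1 macrophage and dendritic cell type and 1.09 (0.702 to 1.74) for plasmacytoid dendritic cells (pDCs). Club cells, secretory cells of the airway, were 22, 19 and 29 cells, basophils 17, 16 and 19, and the cells labelled LECs 9, 9 and 11, with correspondingly wide intervals.

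**Figure D2:**
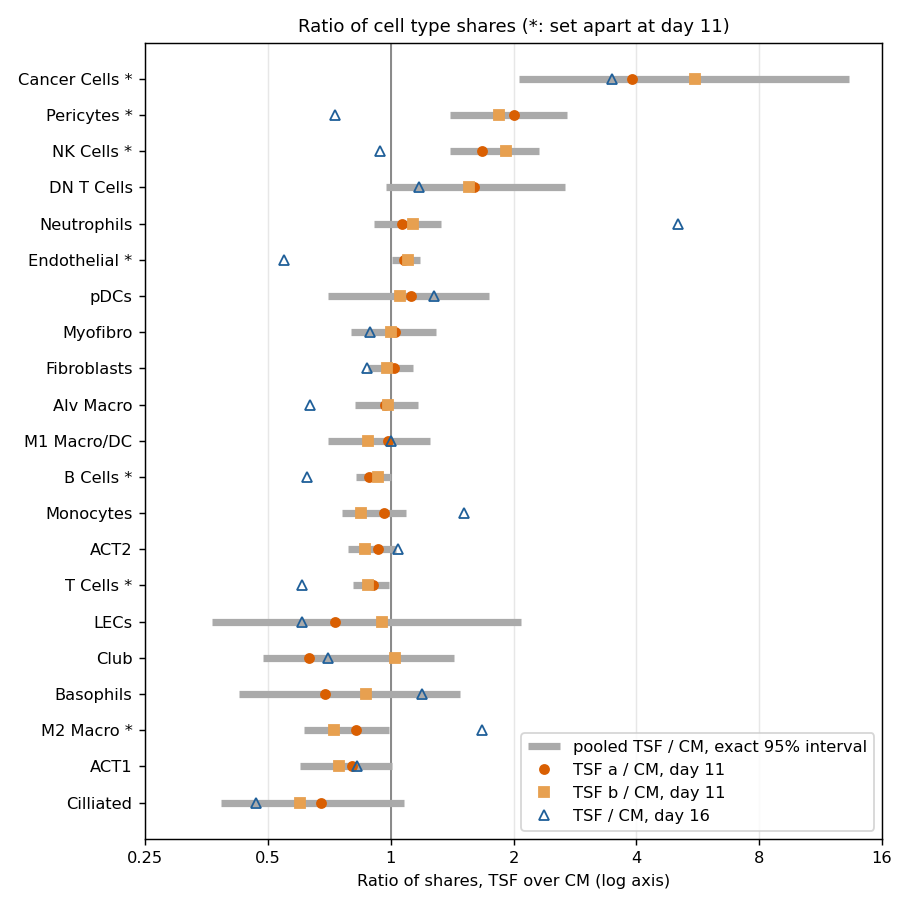
Ratio of the share in TSF over the share in CM (log axis) for 21 cell types, with TSF a and b of day 11 as filled symbols, the exact 95% interval of pooled TSF against CM as a grey bar, and the day 16 ratio as an open triangle. Cancer cells (4.74), pericytes (1.92) and NK cells (1.79) lie farthest to the right at day 11, and the day 16 triangles of pericytes (0.729) and NK cells (0.940) lie left of 1.

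Ratios of cells within a library do not depend on the total of the other types. Of 18 ratios, 8 were higher after TSF by the same rule (44.4%) and 0 were lower (0.0%), but these ratios share members, and all 8 hold cancer cells, NK cells, pericytes, endothelial cells or DN T cells in the numerator. With at least 2000 UMIs a cell, 4 of these 8 calls were lost: DN T to T (1.58), endothelial to alveolar (1.14), pericyte to endothelial (1.56) and pericyte to myofibroblast (1.74). The endothelial to alveolar call was also lost with at most 5% mitochondrial UMIs (1.17). For each 100 T cells, DN T cells included, there were 13.6 NK cells in CM, 24.4 in TSF a and 28.9 in TSF b, a fold of 1.96 (1.49 to 2.57). This ratio was also higher in TSF at day 16, with 16.8 against 24.9 and a fold of 1.48 (1.12 to 1.97). The NK share itself was not higher in TSF at day 16 (ratio 0.940, 0.728 to 1.22), whereas the share of all T cells was lower (0.634, 0.566 to 0.711). DN T cells per 100 other T cells were 3.81, 6.73 and 6.75 in CM, a and b, a fold of 1.77 (1.08 to 3.03), and the fold at day 16 was 1.94 (1.19 to 3.18). The DN T to T ratio was not in the planned list. It took the place of a CD4 to CD8 T cell ratio, which the annotated types did not separate.

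Pericytes were higher against both of their neighbours. For each 100 endothelial cells, LECs included, there were 5.32 pericytes in CM, 9.93 in TSF a and 8.91 in TSF b, a fold of 1.77 (1.27 to 2.51). The values at day 16 were 11.6 in CM and 15.4 in TSF, a fold of 1.33 (0.980 to 1.80). For each 100 myofibroblasts there were 46.9, 92.0 and 86.5 pericytes in CM, a and b, a fold of 1.90 (1.27 to 2.89), and at day 16 98.1 and 80.2, a fold of 0.817 (0.550 to 1.22). The pericyte ratios in the day 11 CM library were below those in all 4 other libraries.

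Cancer cells were higher against each of the 3 types they were set beside. Per 100 endothelial cells there were 0.694 cancer cells in CM, 2.52 in TSF a and 3.51 in TSF b, a fold of 4.35 (1.89 to 12.2). Per 100 ACT2 cells there were 1.94, 8.10 and 12.5, a fold of 5.31 (2.26 to 14.9). Per 100 NK cells there were 7.69, 18.0 and 22.4, a fold of 2.62 (1.10 to 7.66), which was not set apart without TSF b (2.34). Endothelial cells per 100 alveolar cells were 215, 256 and 283, a fold of 1.25 (1.08 to 1.44), whereas at day 16 the fold was 0.572 (0.464 to 0.704).

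No broad balance was set apart at day 11, where each interval included 1. Immune cells per 100 non-immune cells other than cancer cells were 108 in CM, 100.1 in TSF a and 101 in TSF b, a fold of 0.934 (0.865 to 1.01). The lymphoid to myeloid fold was 1.03 (0.915 to 1.15), and the B to T fold was 0.987 (0.856 to 1.13). At day 16 the immune to non-immune fold was 1.76 (1.61 to 1.92) and the lymphoid to myeloid fold 0.277 (0.245 to 0.314), with neutrophils at 28.7% of the TSF library. Neutrophils per 100 T cells at day 11 were 26.2, 29.9 and 32.8, a fold of 1.20 (0.964 to 1.48). The ratio of ACT2 to ACT1 cells, both of the alveolar wall, had a fold of 1.16 (0.865 to 1.55). The log2 gap from CM to the nearer TSF library passed the a to b gap for immune to non-immune cells (0.090 against 0.018). It also did for neutrophils to T cells (0.19 against 0.13) and ACT2 to ACT1 (0.21 against 0.0035). For lymphoid to myeloid and B to T, CM lay between a and b.

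**Figure D3:**
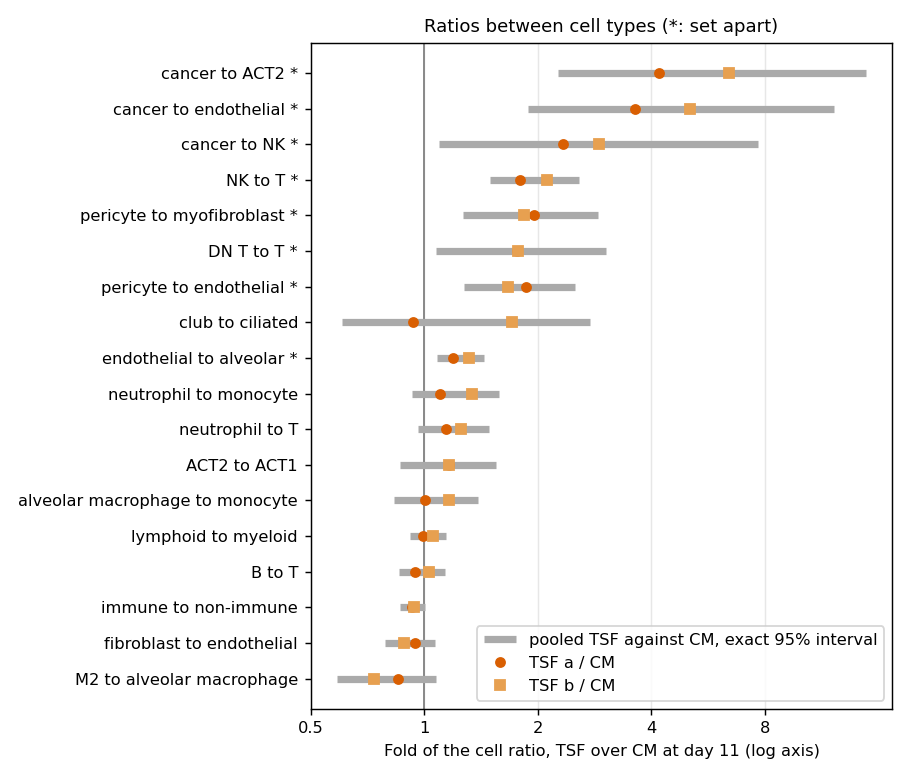
Fold of 18 cell ratios in TSF over CM at day 11 (log axis), with TSF a and b as symbols and the exact 95% interval of pooled TSF against CM as a grey bar. The 8 ratios marked with an asterisk lie right of 1 with both symbols, from a fold of 1.25 (endothelial to alveolar) to 5.31 (cancer to ACT2), and none is marked on the left.

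Depth per cell was close in the 3 libraries. The counts are those left after the authors' correction for ambient RNA, made library by library, and its part in depth was not tested. The median was 2223 UMIs per cell in CM, 2109 in TSF a and 2163 in TSF b, a ratio of 0.961 whose log2 gap from CM to the nearer TSF library was 0.039, against 0.036 between a and b. The mean went the other way, with 3040, 3064 and 3212 UMIs. With each type weighted by its share in CM, the mean was 2991 in TSF a and 3080 in TSF b, on both sides of the CM value. The median number of genes was 1050, 1023 and 1045, and the median percent of mitochondrial UMIs was 2.41, 2.33 and 2.51.

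Within types, medians were called by the gap beyond the a to b spread alone, for the 17 types with at least 20 cells in each library. The median UMI count was lower after TSF in 5 of 17 (29.4%) and higher in 0 of 17 (0.0%). With 3 libraries, CM is often the odd one out by this rule even where the groups do not differ. Types of 1 library also share its depth, so nothing is read from the number of these calls. NK cells had medians of 1759 UMIs in CM, 1495 in TSF a and 1596 in TSF b. B cells had 1520, 1332 and 1405, and neutrophils had 1142, 1052 and 1078. Endothelial cells had 2240, 2135 and 2142, and ciliated cells had 5829, 5180 and 5470. Pericytes did not share this order, with 1613, 1632 and 1580 UMIs, and T cells had 1934, 1737 and 1983. Types with too few cells to be called went both ways. Club cells (22, 19 and 29 cells) had medians of 8667, 15990 and 22351 UMIs, and basophils (17, 16 and 19 cells) had 2568, 1804.5 and 1988. By the same rule, the median percent of mitochondrial UMIs was lower in 1 of 17 types (5.88%), the alveolar macrophages. It was higher in 2 of 17 (11.8%), DN T cells and fibroblasts.

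**Figure D4:**
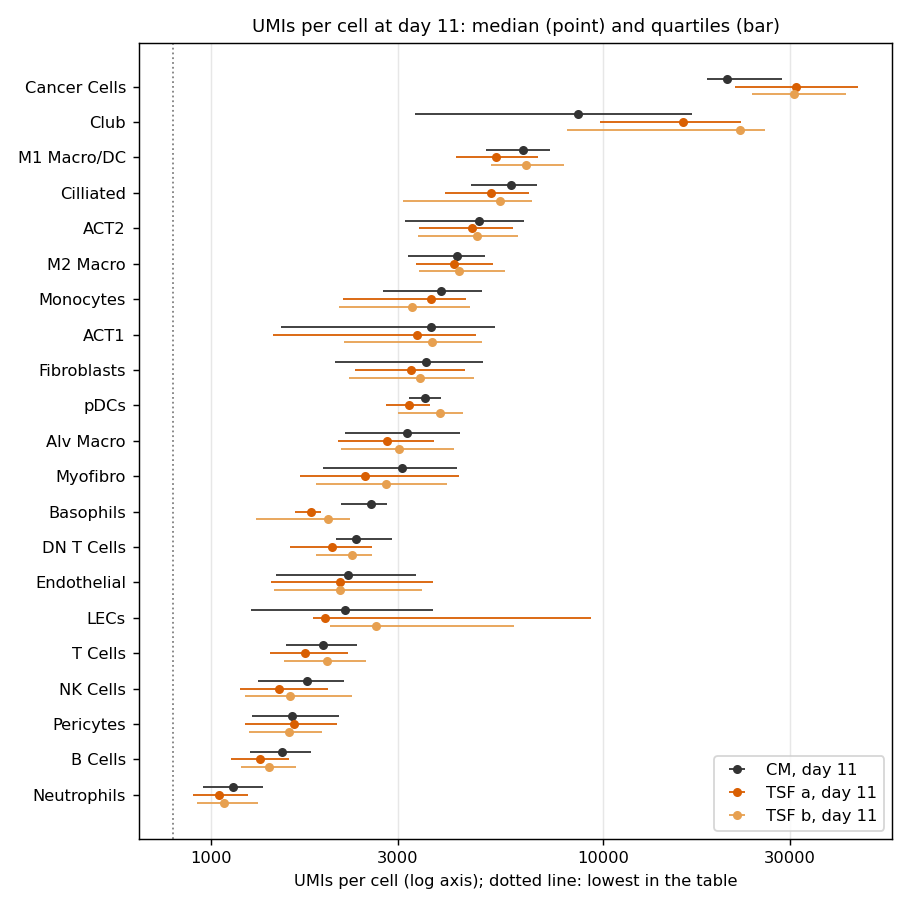
UMIs per cell (log axis) by cell type in the 3 day 11 libraries, with the median as a point and the quartiles as a bar, and a dotted line at the lowest count in the table. Neutrophils (medians of 1142, 1052 and 1078) and B cells lie closest to the line, and the CM point lies right of both TSF points for NK cells, B cells, neutrophils, endothelial and ciliated cells.

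Types with little RNA are the ones that a minimum of UMIs can remove. The table held no cell under 800 UMIs. Among neutrophils, 30.0% (22.8 to 38.0) of CM cells, 43.1% (36.4 to 50.0) of TSF a cells and 41.3% (34.7 to 48.1) of TSF b cells had fewer than 1000 UMIs. With only cells of at least 1000 UMIs, the ratio was 1.82 for NK cells (1.40 to 2.38), 1.85 for pericytes (1.32 to 2.63) and 0.918 for neutrophils (0.727 to 1.16). With at least 2000 UMIs, few cells of these types were left. NK cells then numbered 28, 44 and 58, a ratio of 1.46 (0.952 to 2.30), and pericytes 15, 40 and 25, a ratio of 1.73 (0.978 to 3.28), and neither was set apart. At that minimum B cells had a ratio of 0.554 (0.421 to 0.730) and neutrophils, with 12, 6 and 3 cells, one of 0.299 (0.112 to 0.776), both set apart as lower. The part of depth in the share ratios was not tested further.

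Genes per cell were also set side by side among cells of 2000 to 3000 UMIs. Over all types the median was 1132 genes in CM, 1171 in TSF a and 1159 in TSF b. Of the 12 types with at least 10 such cells in each library, 3 were lower after TSF beyond the spread (25.0%) and 3 were higher (25.0%). These calls again rest on the spread alone, so nothing is read from their number. ACT2 cells had 1069, 993 and 982 genes. Alveolar macrophages had 1233, 1174 and 1169, and monocytes, phagocyte precursors of the blood, had 1157, 1079 and 1058. The higher ones were NK cells, with 1040, 1074 and 1095 genes, myofibroblasts, with 1167, 1211 and 1254, and pericytes, with 1305, 1316 and 1318. These medians came from 14 to 35 cells a library, and the pericyte medians differed by a few genes only.

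The deposited table also divides types into fine sub-clusters, known only by a code. They were made from expression in the merged libraries, so a sub-cluster held mostly by 1 group of libraries may be those libraries and not a kind of cell. The minimum of 20 cells counted 1 CM and 2 TSF libraries together, so sub-clusters held mostly by TSF passed it more readily. Of 251 sub-clusters with at least 20 cells, taken as shares of their own type, 22 were higher after TSF (8.76%) and 18 were lower (7.17%). Endothelial cells held 22 of these 40 calls, 11 higher and 11 lower among 76 tested (28.9%), against 18 among 175 in the other types (10.3%). Fibroblasts had 3 higher and 4 lower of 28, B cells 4 higher and 1 lower of 27, and ACT1 cells 2 higher and 1 lower of 6. None of the 8 NK cell or 7 pericyte sub-clusters was set apart at this depth.

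The endothelial sub-clusters were set beside the day 16 libraries, which had no part in choosing them. The 11 higher ones held 3.86% of endothelial cells in CM, 16.8% in TSF a and 17.4% in TSF b, values that chose them. At day 16 they held 0.806% (0.325 to 1.65) in CM and 1.84% (0.955 to 3.19) in TSF. The 11 lower ones held 19.5%, 6.43% and 6.84% at day 11, and 18.8% (16.2 to 21.5) in CM and 16.1% (13.4 to 19.2) in TSF at day 16. In 10 of the 11 higher ones the day 16 CM share lay below that of CM at day 11, and in 8 of the 11 the day 16 TSF share did. This was also so for most of the 54 endothelial sub-clusters that were not called, 47 for the day 16 CM share and 39 for the day 16 TSF share. Both day 16 shares lay above both TSF shares of day 11 in 5 of the 11 lower ones and in 7 of the 54 not called. The low TSF shares of day 11 chose the lower ones, so a higher count among them was favoured in advance and nothing is read from it. Sub-cluster B.99 held 0 of 855 endothelial cells in CM, where a count of 0 allows a share of up to 0.351% (3 counts of 855), and 16 and 23 cells in TSF a and b, with 0 and 1 at day 16. It passed the minimum of 20 cells through the TSF libraries alone, where it is high, so nothing is read from its 0 in CM. Sub-cluster B.15 held 17 cells in CM, 7 in TSF a and 2 in TSF b, with 33 and 16 at day 16.

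**Figure D5:**
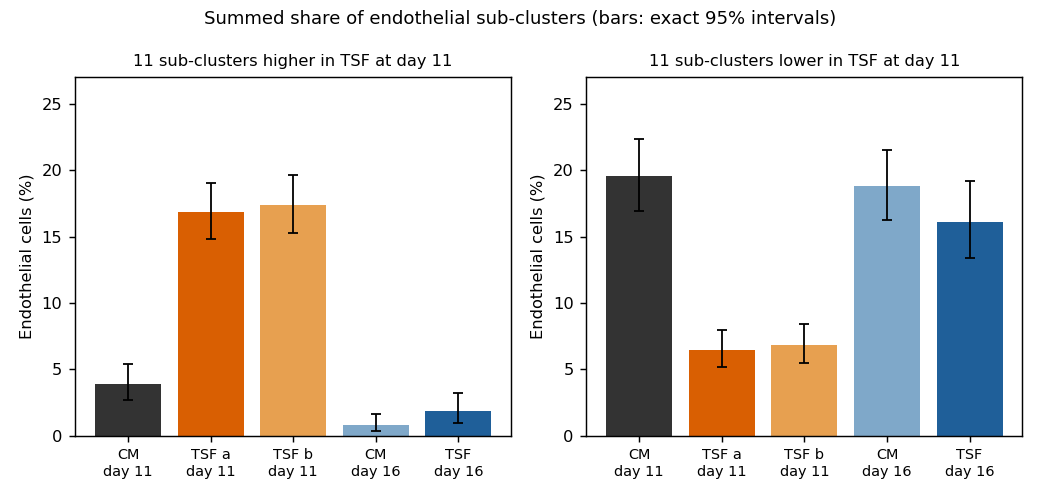
Summed share of endothelial cells (%) in the 11 sub-clusters called higher (left) and the 11 called lower (right) after TSF at day 11, in all 5 libraries, with exact 95% intervals. The day 11 bars chose the sub-clusters, and the day 16 bars did not: the higher ones hold 0.806% and 1.84% at day 16, and the lower ones 18.8% and 16.1%.

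Other types gave mixed pictures at the same level, and the day 11 values again chose the sub-clusters. Among ACT1 cells, the 2 higher sub-clusters held 17.4%, 44.6% and 35.2% in CM, a and b, and 0% and 2.13% in CM and TSF of day 16. The 1 lower ACT1 sub-cluster held 20.7%, 9.90% and 10.2%, and 42.2% and 37.2% at day 16. Among B cells, the 4 higher ones held 12.1%, 23.9% and 24.6%, and 13.5% and 8.17% at day 16. The 1 lower B cell sub-cluster held 7.57%, 2.77% and 4.13%, and 9.30% and 8.45% at day 16. Among 16 ACT2 sub-clusters 1 was called (6.25%), against 10.3% of those in all types other than endothelial. This 1, A.6, held 34, 17 and 18 cells in CM, a and b, a ratio of 0.434 (0.261 to 0.713). Its share of ACT2 cells went from 11.0% in CM to 4.30% and 5.22%, with 5.15% and 7.22% at day 16. Its median UMIs were low in all 3 libraries, at 2380.5, 2320 and 2256, against 4829.5, 4629 and 4773 for all ACT2 cells. The part of depth in this call was not tested. The 4 lower fibroblast sub-clusters held 18.7%, 7.69% and 7.09%, and 8.20% and 4.42% at day 16. The 3 higher fibroblast ones held 2.97%, 10.5% and 11.6%, and 3.70% and 2.65% at day 16. The gene content of these sub-clusters was not analysed here.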

How the data were processed

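The deposited cell table holds, per cell, UMI and gene counts and the percent of mitochondrial UMIs, as made by the authors with Cell Ranger, a customised SoupX correction of ambient RNA and Seurat 4.1.0, and the cell types they assigned by hand from clusters. Its cells had at least 800 UMIs and 202 genes. Cells called doublets or unknown were left out, and no doublet caller was run. The table also names 2 libraries outside the samples described, which were not used. The authors' tables of day 16 cancer cells (fold changes, p-values and gene set enrichment) were not used, and neither were the gene lists.

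Cell types, cell ratios and the rule for calls were chosen with earlier results of these data known. Every type was counted, and those set apart, cancer cells and the 5 most numerous types were given in full. Calls needed at least 20 cells over the 3 day 11 libraries. Medians needed 20 cells in each library and were called by the gap beyond the spread alone. The ratio is the mean of the a and b shares over the CM share. Intervals came from scipy 1.17.1 under Python 3.11.15, tables from pandas 2.3.3 with numpy 2.4.6 and plots from matplotlib 3.10.9. Alternatives were minimums of 1000 and 2000 UMIs, at most 5% mitochondrial UMIs, other denominators, a centred log ratio, stricter and looser calls, and leaving out each TSF library.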

Additional observations from a re-analysis of the deposited data

Results flagged for a closer look

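For 8 cell types every TSF share lay on 1 side of CM at day 11 and on the other side at day 16. The difference was not tested, since there was 1 CM library at each day and 1 TSF library at day 16. The log2 ratio at day 16 minus that at day 11 was -1.40 for pericytes, -0.99 for endothelial cells, -0.93 for NK cells and -0.18 for myofibroblasts, all higher after TSF at day 11 and lower at day 16. It was 1.11 for M2 macrophages, 0.74 for monocytes, 0.61 for basophils and 0.21 for ACT2 cells, all lower after TSF at day 11 and higher at day 16. Of these 8 types, pericytes, endothelial cells, NK cells and M2 macrophages were set apart at day 11. The day 11 intervals of myofibroblasts, monocytes, basophils and ACT2 cells included 1, and myofibroblasts were at 2.62% in both CM and TSF b. At day 16 the interval included 1 for NK cells (0.728 to 1.22), myofibroblasts (0.681 to 1.17), basophils (0.533 to 2.79) and ACT2 cells (0.830 to 1.30). For these types the change of side is therefore within counting error on at least 1 day. Neutrophils were 28.7% of the TSF library at day 16, which lowers the shares of the other types there. With neutrophils left out of the day 16 totals, an alternative added after seeing the data, the day 16 ratio was 1.24 for NK cells and 1.18 for myofibroblasts, on the same side of CM as at day 11. It was 0.964 for pericytes and 0.724 for endothelial cells, and it stayed above 1 for M2 macrophages (2.21), monocytes (2.00), basophils (1.58) and ACT2 cells (1.38).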

How the results depend on the processing

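Cancer cells kept their ratio between 3.90 and 5.58 under every alternative run, and were no longer called where 100 cells were needed. Pericytes and NK cells were set apart under all alternatives but the minimum of 2000 UMIs, which left 1 type higher (cancer cells). The count of lower types was 3, and it was 1 to 2 without 1 of the TSF libraries. It was 1 with shares taken within immune or non-immune cells, namely ACT1 (0.751, 0.583 to 0.976) and none of the main 3. With doublets and unknown cells kept in the total it was 4, ACT1 again included (0.760, 0.590 to 0.988). It was also 1 where the gap had to pass the largest spread of the common types. With the interval widened for the number of types, chosen after seeing the data, it was 0. It was 5 both with a centred log ratio, ACT1 among them, and with the gap alone as the rule. DN T cells were called higher with at least 1000 UMIs (1.69), with at most 5% mitochondrial UMIs (1.81) and within immune cells (1.64). The ratio of UMIs per cell over all cells turned from 0.961 for medians to 1.03 for means and to 1.01 among cells of at least 2000 UMIs. Among those cells the median UMI ratio also turned to 1.06 for B cells, 1.05 for endothelial cells and 1.09 for NK cells, and it was 1.02 for endothelial cells by means. The values by means used no such minimum. The part of the minimum in the other turns was not tested. The ratio of genes per cell at matched depth was 1.03, and 1.00 among cells of 1000 to 2000 UMIs. No paired analysis was possible because CM had 1 library. Leaving cancer cells out of the total was also chosen after seeing the data, and it ended the call of B cells only. Depth limits what the rarest types, such as LECs, basophils and club cells, can show.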
